A study of Mus musculus with 28 samples.

Results

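The cytosolic ribosomal protein (RP) genes were examined in read counts per gene from mouse liver. They were taken as the features whose gene symbol begins with Rpl or Rps followed by a number and at most 1 further letter a, x or l, together with *Rpsa*, *Rplp0*, *Rplp1* and *Rplp2*, with named pseudogene copies left out. The rule gave 83 genes of the 49585 features counted, 32 of the small subunit and 51 of the large subunit. Of these, 81 reached a mean normalized count of 0.5 and were tested, and *Rpl10l* (0 counts in all 28 libraries) and *Rpl6l* (mean 0.393 counts) did not. Despite their symbols, *Rpl6l* and *Rpl32l* are annotated as processed pseudogenes in Gencode vM21, and *Rps4l* as a transcribed processed pseudogene. The rule does not reach some other genes that encode RPs or their paralogs, such as *Rps3a1*, *Fau* and *Rpl7l1*, and 6 of these were followed separately.

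Livers came from C57BL/6JOlaHsd mice that overexpress SIRT6 from a transgene (SIRT6-tg, here tg) and from their wild type littermates (WT), 7 mice in each of the 4 groups of sex and genotype. All mice were 5 to 7 months old, ate standard chow and were fasted briefly before the liver was taken. The transgenic mice were of a single line, and the promoter that drives the transgene is not given in the sources used here. Total counts per library were between 18758863 and 35393069. *Sirt6* reached 198 to 358 CPM (counts scaled to a common library total) in male tg and 16.4 to 50.2 CPM in female tg mice. These were above the 1.69 to 3.23 CPM of male WT and the 1.80 to 6.21 CPM of female WT mice. The libraries thus matched their genotype labels, while *Sirt6* is no check of the labels of sex. The mean of 9 hepatocyte genes, such as those of plasma proteins, was 11.9 to 12.8 log2 CPM in all libraries. The measurements are of whole liver, in which a lower number of cells of a type and less RNA per cell cannot be told apart.

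RPs are the protein part of the ribosome, which builds all cellular proteins from mRNA. The small subunit reads the mRNA, while the large subunit forms the peptide bonds and carries a stalk of acidic P proteins that recruits elongation factors. RP genes are highly transcribed, short and intron-containing. Their mRNAs typically begin with an uninterrupted stretch of C and T bases, through which growth signalling adjusts their translation. RP genes are also the source of many processed pseudogenes, copies of the mRNA that were reverse transcribed into the genome. A read that matches such a copy as well as the gene is not unique, and only uniquely mapped reads were counted in these data.

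The following stretches of the coding sequence (bases 1 to 60 from the start codon, GRCm38, Gencode vM21 transcripts) show how closely copies can match. Capitals mark the bases that differ between a gene and its copy, and a pair without capitals is identical over the stretch. Pairs of a gene and a pseudogene copy are shown first, and then a pair of paralogs.
Rps6: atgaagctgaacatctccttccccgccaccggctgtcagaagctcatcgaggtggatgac
Rps6-ps4: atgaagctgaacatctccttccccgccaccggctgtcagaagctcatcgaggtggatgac
Rpl28: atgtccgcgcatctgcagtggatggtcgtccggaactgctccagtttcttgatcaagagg
Rpl28-ps1: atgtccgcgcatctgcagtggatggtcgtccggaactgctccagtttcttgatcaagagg
Rps7: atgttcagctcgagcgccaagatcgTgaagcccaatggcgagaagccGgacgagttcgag
Gm6472: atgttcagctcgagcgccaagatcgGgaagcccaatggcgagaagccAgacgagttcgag
Rps27: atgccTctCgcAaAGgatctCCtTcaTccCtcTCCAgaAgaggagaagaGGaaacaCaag
Rps27l: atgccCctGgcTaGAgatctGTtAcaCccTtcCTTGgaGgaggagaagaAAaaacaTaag

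*Rps6*, whose protein is the classic substrate of the S6 kinases, lies at chr4:86854660-86857412, and its coding sequence is identical over all 747 bases to *Rps6-ps4* at chr2:75191073-75191822. *Rpl28* at chr7:4792874-4795066 is identical over all 411 coding bases to *Rpl28-ps1* at chr1:128038569-128038982. *Rps7* at chr12:28630854-28635953 differs at 3 of 582 coding bases from *Gm6472* at chrX:152909505-152910155, 2 of them in the stretch shown. The paralogs *Rps27* and *Rps27l*, by contrast, differ at 18 of the first 60 bases. In the count table the copies themselves held few reads: a median over the 28 libraries of 3.0 counts for *Rps6-ps4*, 2.5 for *Rpl28-ps1* and 34.5 for *Gm6472*.

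Across the coding members, sharing of sequence was the rule. Of 80 members with an annotated coding sequence, 77 shared at least 1 exact 50-base window with another annotated gene and 76 with a pseudogene. The median member shared a window with 8 pseudogenes, and *Rpl7a*, a large subunit gene, shared one with 120. In 27 members no 50-base coding window was unique, 29 had unique windows but under 25%, and 24 had 25% or more. Median mean counts in these classes were 94.9, 884 and 2881, and the median levels per length were 1.68, 15.7 and 78.8 CPM per kb of exon. Spearman's rho between the unique share and mean counts per kb of coding sequence was 0.68 across the 80 genes. With 75-base windows rho was 0.69. Both describe genes that share libraries. The read length is not given in the sources used here, so the window lengths are choices.

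Levels per length spanned several orders of magnitude. The highest were *Rplp1*, an acidic stalk protein, at 386 CPM per kb, *Rps15* of the small subunit at 279, and *Rpl4* of the large subunit at 248. *Rps6*, with 0% unique windows, had a mean of 28.9 counts, 0.69 CPM per kb. *Rpl23a* of the large subunit, also without a unique window, had the lowest mean in that class, 5.6 counts, below the 11.9 summed over its pseudogene copies. It was the only one of the 27 members of the class that was below its copies. At the bottom of the range were *Rpl3l*, a paralog known from striated muscle, at 0.056 CPM per kb with 100% unique windows, the pseudogene *Rpl6l* at 0.017, and *Rpl10l*, a paralog known from testis, which had no count. For *Rpl10l*, a count of 0 allows up to 3 counts per library, counting error only.

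**Figure D1:**
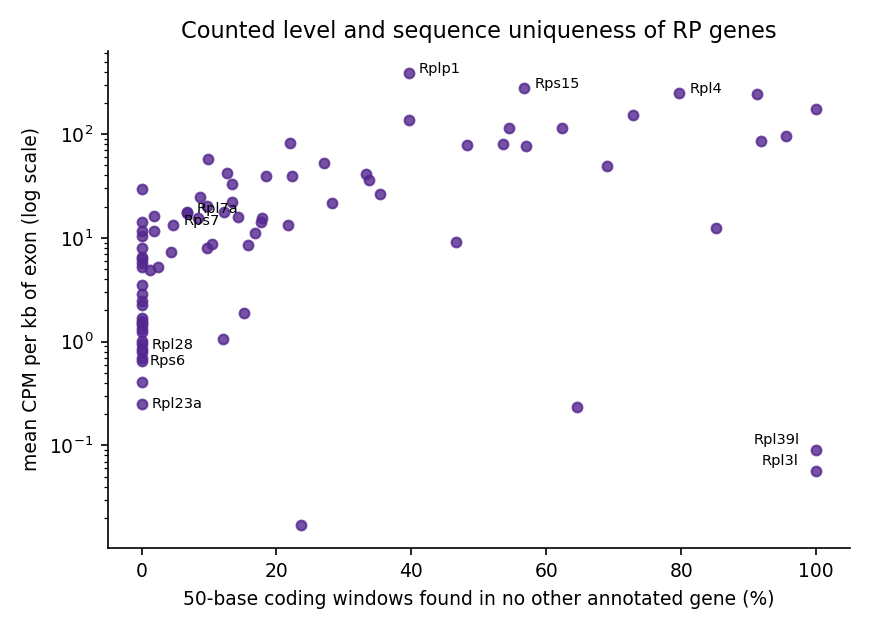
Mean CPM per kb of exon over 28 libraries (log axis) against the percent of 50-base coding windows that occur in no other annotated gene, 1 point per member with counts. The 3 members annotated as pseudogenes are placed by windows of their transcript. Members without unique windows reach at most 29.5 CPM per kb, while the 3 highest members have between 39.6% and 79.7% unique windows, and the low points at 100% are the paralogs *Rpl39l* and *Rpl3l*.

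The share of all counts that fell in the 83 genes differed more between mice of a group than between genotypes. It was 0.407% to 0.964% in male WT (median 0.531%), 0.425% to 0.828% in male tg (median 0.509%), 0.310% to 0.705% in female WT (median 0.359%) and 0.324% to 0.602% in female tg mice (median 0.346%). The 4 ranges overlapped. Male WT 6 stood alone at the top of its group, where the next mouse was at 0.563%. Male tg 7, female WT 1, and female tg 1 and 6 were the high libraries of the other groups.

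**Figure D2:**
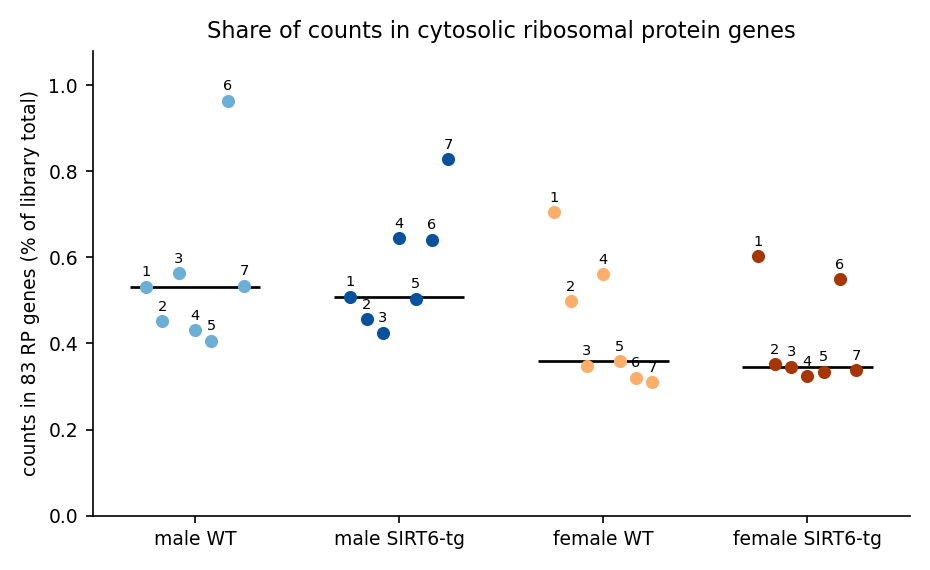
Counts in the 83 RP genes as a percent of each library's total (y axis) in the 4 groups of 7 mice, 1 point per mouse labelled with its replicate number and a line at the group median. Male WT 6 lies at 0.964%, above the 0.407% to 0.563% of the other 6 male WT mice.

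The same mice were high for most members at once. Male WT 6 had the highest normalized level of its group for 69 of 81 members, male tg 7 for 65 and female WT 1 for 64. Among female tg mice, replicate 1 was highest for 43 members and replicate 6 for 30. At the other end, male tg 3 was lowest for 59 members and female tg 4 for 52. Over all 28 libraries, 59 of 81 members had their highest level in male tg 7. Deviations from the group means followed each other, with a median pairwise Pearson correlation of 0.79 between members over 28 libraries. Among the 63 members with a mean of at least 100 counts the median was 0.94, against 0.01 among all 10066 genes of that depth. *Rps14* followed the mean of the other members most closely (r = 0.997). *Rpl5* (r = -0.31), *Rpl10* (r = -0.20) and *Rpl3l* (r = -0.14) ran weakly against it. These correlations describe members that share libraries and depth, and no p is given for them.

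Between mice of a group, members above 2 log2 CPM spread more than all genes at the same level, and those below did not. The median SD of log2 CPM was 0.38 in male WT and 0.41 in male tg mice, and 0.48 in female WT and 0.44 in female tg mice, where all 21583 genes tested had medians of 0.36, 0.34, 0.37 and 0.37. All genes include many with few counts, which spread more. At a mean log2 CPM of 6 to 8 the pooled SD was 0.50 for 17 members and 0.22 for 1583 genes, and at 4 to 6 it was 0.47 for 27 members and 0.23 for 4126 genes. At 0 to 2 it was 0.30 for 14 members and 0.37 for 2439 genes, and below 0 it was 0.53 for 5 members and 0.54 for 9322 genes. *Rpl37a* (pooled SD 0.85), *Rpl13* (0.77), both of the large subunit, and *Rps21* (0.70) of the small subunit spread most among members whose mean normalized count reached 10. For *Rpl37a* male WT mice ran from 30.6 to 149 CPM with a median of 41.3, and male tg mice from 35.7 to 187 with a median of 53.6. Female WT mice ran from 19.2 to 105 CPM (median 30.1) and female tg mice from 19.4 to 90.4 (median 26.9). The 4 ranges of *Rpl37a* overlapped widely, and its highest mouse in each group was that group's high library.

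*Rpl4* (0.18), *Rpl10* (0.19) and *Rpl28* (0.20), all of the large subunit, spread least. *Rpl4* ran from 433 to 536 CPM in male WT, 472 to 668 in male tg, 393 to 624 in female WT and 416 to 543 in female tg mice. Its highest male tg and female WT values were again in male tg 7 and female WT 1. Without male WT 6 the median SD of members in male WT mice was 0.24.

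Another measure moved with the RP level from mouse to mouse. For every library, the median log2 CPM of protein-coding genes with at most 1500 bp of exon was compared with that of genes over 5000 bp, RP genes left out. The difference, short minus long, was 0.87 in male tg 7 and 0.71 in male WT 6, and at most 0.42 in the other 26 libraries. The 7 libraries with the highest mean RP level were the 7 with the highest short-minus-long value, and the 7 lowest were also the same. No library differed by more than 3 places between both rankings. Each library's dependence on gene length and GC was then taken out. The members' median SD was 0.30 in male WT, 0.27 in male tg, 0.36 in female WT and 0.28 in female tg mice. All genes tested, which include many with few counts, had medians of 0.34, 0.33, 0.36 and 0.35 in the same order. After this step members were not compared with genes at the same level, so whether they still spread more is not known. The mean of 5 erythroid genes (globins and *Alas2*) was also highest in male WT 6, male tg 7, female WT 1 and female tg 6, with 6.25 log2 CPM in male WT 6 where the group began at 4.95, and 6.86 in male tg 7 where the group began at 4.76. The part of these measures in the RP level was not tested.

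**Figure D3:**
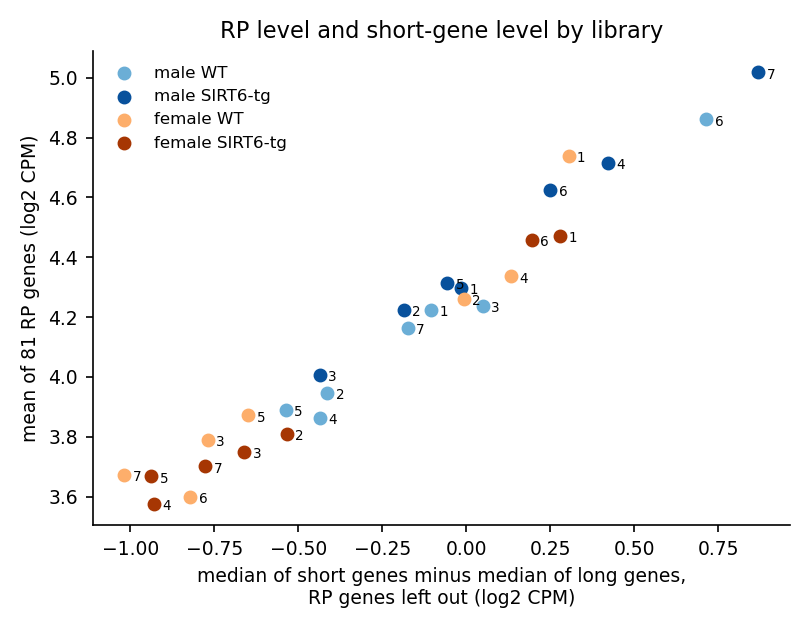
Mean log2 CPM of 81 RP genes (y axis) against the median log2 CPM of short genes (at most 1500 bp of exon) minus that of long genes (over 5000 bp), RP genes left out (x axis), 1 point per library labelled with its replicate number. The libraries lie close to a rising line in all 4 groups, from about -1.02 to 0.87 on the x axis.

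Whether the transgene changed RP transcripts in males was asked with an edgeR quasi-likelihood test over 21583 genes. In male tg mice 3 of 81 members differed from male WT mice at an adjusted p under 0.05, 3.7% against 20.7% of all genes. Higher were 2, *Rpl28* and *Rpl36a*, where 9.68% of all genes were higher, and lower was 1, *Rpl39l*, where 11.0% were. At an unadjusted p under 0.05 there were 14 members, 17.3% against 32.6% of all genes. The fold changes lay mostly on one side. The log2 fold change was above 0 in 77 members with a median of 0.33, against 0.06 for all genes, and it was 0.33 for small subunit and 0.33 for large subunit members. The median standard error (SE) of a member was 0.23. By library size alone, without normalization factors, the median was 0.02 with 47 members above 0, while the median of all genes was -0.22. No member had all 7 tg mice above or below all 7 WT mice, whereas 6.98% of all genes did, 2.6% with the tg mice above.

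*Rpl28* ran from 1.13 to 1.73 CPM (median 1.41) in male WT mice and from 1.66 to 2.17 (median 1.86) in male tg mice. The ranges touched only at male tg 3, which was under the highest WT mouse, and the log2 fold change was 0.41 (SE 0.13, adjusted p = 0.028). *Rpl36a* on chromosome X, also a large subunit gene, ran from 2.06 to 2.89 CPM (median 2.38) in male WT and from 2.51 to 4.08 (median 3.18) in male tg mice. Its ranges overlapped, and the log2 fold change was 0.41 (SE 0.15, adjusted p = 0.044). Both have no unique coding window and means of 41.5 and 72.7 counts. The 2 values were past the threshold in 21 and in 15 of the 28 fits that left out 1 library each. Under 11 other settings *Rpl28* was called in 5, with log2 fold changes from 0.13 to 0.46 and adjusted p-values up to 0.59. *Rpl36a* was called in 3 of the 11, with log2 fold changes from 0.12 to 0.41 and adjusted p-values up to 0.61.

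*Rpl39l*, a paralog of *Rpl39* known from testis, was a gene of few reads. Male WT mice had 0 to 10 counts and 39 in all, and male tg mice 0 to 4 and 8 in all. Its log2 fold change was -1.89 (SE 0.69, adjusted p = 0.049), and it was past the threshold in 8 of the 28 fits that left out 1 library each and under 5 of 10 other settings. *Rpl39* itself ran from 19.4 to 63.7 CPM in male WT and from 20.8 to 68.3 in male tg mice, a log2 fold change of 0.29 (SE 0.34, adjusted p = 0.61).

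The count of 3 rested on single mice. It was 0 without male WT 3, male WT 4, male tg 4 or male tg 6, 1 without male WT 2, male WT 7, male tg 2, male tg 5, male tg 7, female WT 5 or female tg 7, and 9 without male WT 6 or male tg 3. Of all genes 15.3% to 22.3% were called in the 28 fits that left out 1 library each. With 2 surrogate variables for unmodelled variation the count of members was 43 (42 higher, 1 lower), 53.1% of members against 34.8% of all genes. Markers of leukocytes and macrophages moved in the same comparison, with 10 of 12 and 6 of 6 genes lower in male tg mice, and 5 of 9 hepatocyte genes tested were higher. The mean of the leukocyte list was 0.89 to 1.96 log2 CPM in male WT and -0.20 to 0.40 in male tg mice, and that of the macrophage list 4.71 to 6.27 and 4.04 to 4.81. Their part in the RP values was not tested.

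**Figure D4:**
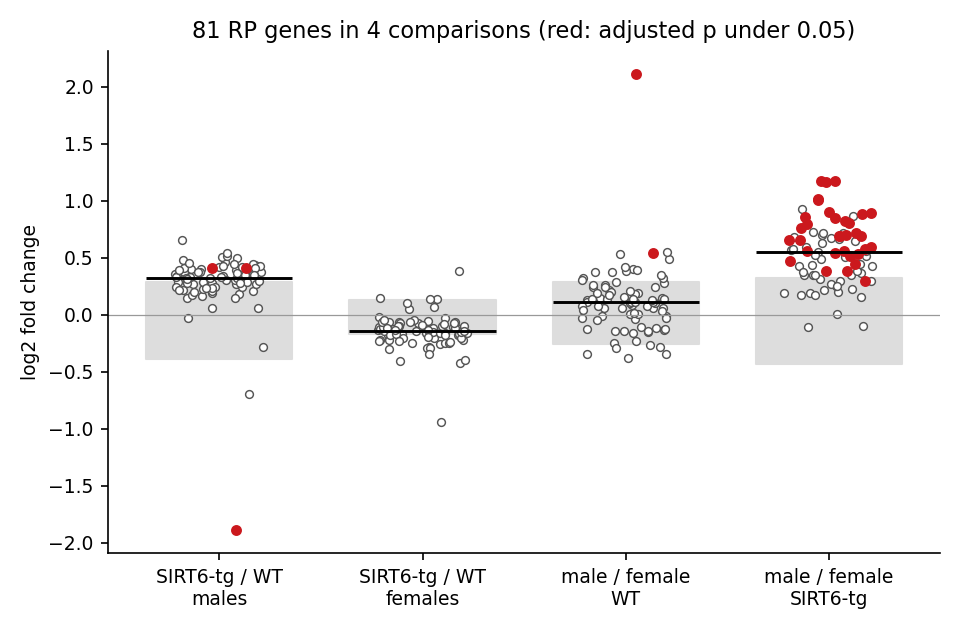
Log2 fold change (y axis) of 81 RP genes in 4 comparisons, 1 point per gene, red where the adjusted p is under 0.05, with a black line at the members' median and a grey band from the lower to the upper quartile of all 21583 genes. Members centre on 0.33 in males and -0.14 in females for tg against WT, and on 0.11 in WT and 0.55 in tg for male against female.

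In females 0 of 81 members were called in edgeR, where 0.0278% of all genes were (0.0232% higher and 0.00463% lower), and 0 in DESeq2. At an unadjusted p under 0.05 there were 2 members, 2.47% against 5.62% of all genes, and these were *Rps7* and *Rpl9*. The median log2 fold change was -0.14, with 7 members above 0, against 0.00 for all genes. *Rps7*, a small subunit protein, ran from 13.7 to 31.2 CPM (median 18.9) in female WT and from 12.9 to 25.7 (median 15.2) in female tg mice. The ranges overlapped over most of their length, with a log2 fold change of -0.40 (SE 0.17, adjusted p = 0.80). *Rpl9* of the large subunit ran from 7.62 to 16.3 CPM (median 9.64) and from 7.88 to 11.1 (median 8.20), a log2 fold change of -0.29 (SE 0.13, adjusted p = 0.81). The median of members turned to 0.03 without female WT 1, the high library of its group. No member's 2 groups were apart, against 0.0834% of all genes in either direction and 0.0417% with tg mice above.

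The genotype effect in males minus that in females, tested as an interaction, gave 0 members in edgeR and 0 in DESeq2, where edgeR called 5.05% of all genes (1.2% higher and 3.84% lower). At an unadjusted p under 0.05 there were 16 members, 19.8% against 18.8% of all genes. The median difference was 0.49 on the log2 scale, against 0.03 for all genes. *Rpl9* had the lowest p, with a difference of 0.53 (interval of 2 SE from 0.17 to 0.90, adjusted p = 0.091), and *Rpl28* the next, 0.53 (0.15 to 0.91, adjusted p = 0.11). *Rpl9* passed the threshold in 2 of the 28 fits that left out 1 library each, and *Rpl28* in none. The 2 values do not show that the sexes respond alike, since their intervals reach 0.90 and 0.91. The count was 1 without male WT 6, female WT 6 or female tg 1, and 23 with 2 surrogate variables, where 14.5% of all genes were called.

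Male WT against female WT mice gave 2 members higher in males, 2.47% against 12.4% of all genes called in either direction, 6.65% higher and 5.71% lower. *Rps7* ran from 25.5 to 43.6 CPM (median 30.8) in male WT mice and from 13.7 to 31.2 in female WT mice. The ranges of *Rps7* overlapped, with a log2 fold change of 0.54 (SE 0.17, adjusted p = 0.036). *Rpl39l* had 39 counts in male WT and 7 in female WT mice, none above 2 in a female WT mouse, and a log2 fold change of 2.12 (SE 0.70, adjusted p = 0.044). At an unadjusted p under 0.05 there were 7 members, 8.64% against 25.1% of all genes. Over all members the median was 0.11, with 57 above 0, and it was -0.04 without male WT 6. The count was 0 without male WT 6, male WT 7, female WT 3 or female WT 5, and 1 without male WT 3, male WT 4, female WT 2, female WT 4, female WT 6 or female WT 7. By library size alone it was 14. The groups of no member were apart, against 2.96% of all genes in either direction and 1.33% with males above. Of the leukocyte markers 6 of 12 were higher in male WT mice, and their part in these values was not tested.

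Male tg against female tg mice gave the most calls. Of 81 members 33 were higher in males, 40.7% against 12.9% of all genes, and 0 were lower, where 10.2% of all genes were lower and 23.1% were called in either direction. They comprised 16 of 32 small subunit members and 17 of 49 large subunit members tested. At an unadjusted p under 0.05 there were 48 members, 59.3% against 35.4% of all genes. The median log2 fold change was 0.55, against -0.04 for all genes, and 79 members were above 0. Among all genes with over 500 and up to 1000 bp of exon 9.07% were called higher, and among those with over 1000 and up to 2000 bp 16.3%. Members have 383 to 6270 bp of exon, with a median of 1734. This comparison shares its male tg mice with the male genotype comparison and its female tg mice with the female one. How far the sex difference in tg mice exceeds that in WT mice is the same contrast as the interaction above. For that contrast 0 members were called and the median was 0.49. The median RP share of counts was 0.531% in male and 0.359% in female WT mice, and 0.509% and 0.346% in tg mice.

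*Rps7* had the lowest p, with 30.1 to 48.4 CPM (median 34.6) in male tg and 12.9 to 25.7 (median 15.2) in female tg mice. All males were above all females, and the log2 fold change was 1.18 (SE 0.18, adjusted p = 1.3e-05). *Rps2*, also of the small subunit, ran from 159 to 263 CPM (median 190) in males and from 85.2 to 178 (median 103) in females, where female tg 6 lay above the lowest male, and a log2 fold change of 0.85 (SE 0.18, adjusted p = 0.00091). Among large subunit genes *Rpl17* was at 8.68 to 12.4 CPM in males and 5.23 to 9.01 in females, a log2 fold change of 0.60 (SE 0.12, adjusted p = 0.0007). *Rpl27* was at 2.30 to 4.24 and 1.38 to 2.36 CPM, a log2 fold change of 0.70 (SE 0.16, adjusted p = 0.0024). *Rpl11*, whose protein also binds the p53 regulator Mdm2, was at 2.62 to 5.04 and 1.57 to 2.80 CPM, a log2 fold change of 0.69 (SE 0.16, adjusted p = 0.0026). These 5 genes were called in all 28 fits that left out 1 library each, and in all but *Rps7* a single female mouse lay above the lowest male. *Rps7*, *Rpl9* and *Rpl10a* were the 3 members whose groups were apart, 3.7% of members against 6.13% of all genes apart in either direction and 3.58% higher in males.

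**Figure D5:**
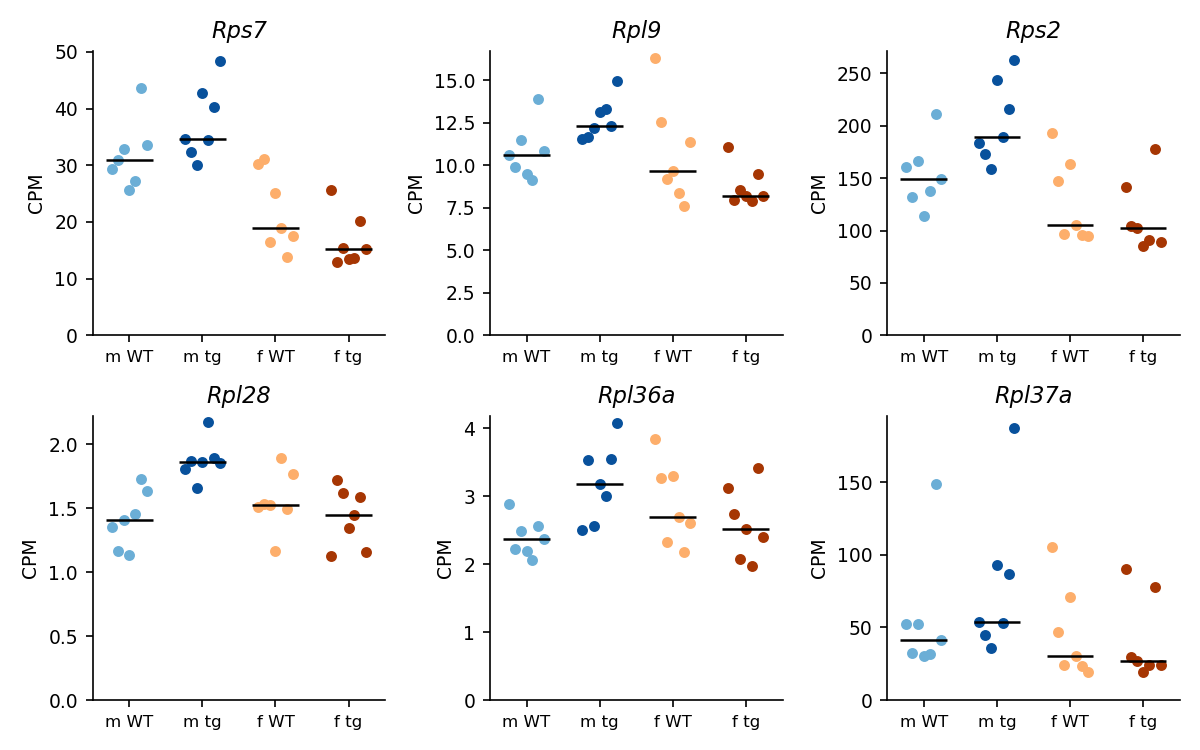
CPM (y axis, from 0) of 6 RP genes in each mouse, with male (m) and female (f) WT and tg (tg) mice on the x axis and a line at each group's median. *Rps7* in male tg mice lies between 30.1 and 48.4 CPM, above all female tg mice, whereas the ranges of *Rpl37a* overlap in all 4 groups.

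The count of 33 was 19 without male tg 7 or female tg 7, 20 without female tg 4 or female tg 5, 21 without female tg 2, and up to 42 without female tg 6. Under 11 other settings it ran from 22 to 65, and 17 members were called in all of them and in the fit reported here. Among those 17 were *Rps2*, *Rps3*, *Rps7*, *Rps9*, *Rps10*, *Rps16*, *Rps27a* and *Rps27l* of the small subunit, and *Rpl6*, *Rpl8*, *Rpl9*, *Rpl11*, *Rpl17*, *Rpl18*, *Rpl27* and *Rpl30* of the large subunit. Of the leukocyte and macrophage markers 3 of 12 and 1 of 6 were lower in male tg mice, and their part in these values was not tested. The short-minus-long measure was also higher in males, with a median of -0.02 in male tg and -0.66 in female tg mice and overlapping ranges. In WT mice its medians were similar, -0.17 in males and -0.65 in females. Once the dependence on gene length and GC was taken out, the members' median log2 fold change between male and female tg mice was 0.36 and the count 28.

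Paralogs were set beside their partners. *Rps27l*, a paralog of *Rps27* known as a p53 target, was at 152 CPM per kb and *Rps27* at 1.5, with 72.9% and 0% unique windows. *Rps27l* ran from 93.2 to 193 CPM (median 114) in male WT and from 110 to 281 (median 154) in male tg mice, a log2 fold change of 0.54 (SE 0.21, adjusted p = 0.066). In female WT and female tg mice its medians were 86.6 and 84.2 CPM, a log2 fold change of -0.04 (SE 0.21, adjusted p = 1.00). Male tg mice exceeded female tg mice in *Rps27l* by 0.79 on the log2 scale (SE 0.21, adjusted p = 0.0067), and the same value for *Rps27* was 0.56 (SE 0.23, adjusted p = 0.081). The pseudogene *Rps4l* was at 12.4 CPM per kb and *Rps4x*, the X-linked coding gene, at 57.5. *Rps4l* was higher in male than in female tg mice by 0.81 (SE 0.26, adjusted p = 0.022), and *Rps4x* had 0.38 (SE 0.22, adjusted p = 0.21). *Rpl3l* had a mean of 2.5 counts and was called in no comparison, and its partner *Rpl3* was at 7.28 CPM per kb. *Rpl10*, the X-linked partner of *Rpl10l*, ran from 8.09 to 11.2 CPM in male WT and from 9.61 to 12.5 in male tg mice, a log2 fold change of 0.19 (SE 0.11, adjusted p = 0.21).

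The 6 RP genes and paralogs outside the rule were counted in the same fit. All 6 were higher in male than in female tg mice, where 12.9% of all genes were higher. Among them was *Rps3a1* (log2 fold change 1.00, SE 0.23, adjusted p = 0.0026). In males 2 of 6 were higher in tg mice, where 9.68% of all genes were higher. *Rpl7l1* was among the 2 (0.34, SE 0.090, adjusted p = 0.0067). In females 0 of 6 were called, where 0.0278% of all genes were. The interaction of sex and genotype was called for 0 of the 6, where it was called for 5.05% of all genes.

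Genes that make or serve the ribosome were followed as well. Of 18 translation factors 6 were higher in male tg than in male WT mice and 0 lower, with a median log2 fold change of 0.32. These included *Eef1a1*, which brings aminoacyl-tRNA to the ribosome (0.41, SE 0.092, adjusted p = 0.0015), *Tpt1* (0.39, SE 0.097, adjusted p = 0.0044) and the initiation factor subunit *Eif3l* (0.40, SE 0.10, adjusted p = 0.0055). Of 28 ribosome biogenesis genes 4 were higher and 0 lower (median 0.22), led by *Bop1* (0.39, SE 0.087, adjusted p = 0.0013) and *Pes1* (0.27, SE 0.083, adjusted p = 0.019), partners in large subunit assembly. Among 14 genes of growth signalling 4 were higher and 0 lower (median 0.19), namely *Rps6kb1* and *Rps6kb2*, which encode S6 kinases, *Larp1*, a binder of the C and T stretch at the start of RP mRNAs, and *Akt1s1*. In the same comparison 9.68% of all genes were higher. In females 0 genes of all 3 lists were called, where 0.0278% of all genes were. The genotype effect differed between the sexes in *Eef1a1* (male minus female 0.47, SE 0.13, adjusted p = 0.030). It also differed in *Bop1* (0.43, SE 0.12, adjusted p = 0.036), and in no other gene of these lists. Of all genes 5.05% were called for this difference.

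Between male and female tg mice 9 of 18 translation factors, 16 of 28 biogenesis genes and 4 of 14 signalling genes were higher in males and 0 lower, against 12.9% of all genes higher. *Bop1* (0.77, SE 0.088), *Rrp12* (0.85, SE 0.12) and *Rrp9* (0.74, SE 0.14) led the biogenesis genes, with adjusted p-values of at most 0.0003. *Eif4ebp1*, an inhibitor of cap-dependent initiation, led the signalling genes (0.66, SE 0.16, adjusted p = 0.0027). Between mice, the mean of the translation factors was highest in male WT 6 (7.08 log2 CPM), male tg 7 (7.40), female WT 1 (7.21) and female tg 6 (7.05). The mean of the biogenesis genes was highest in male WT 6 (4.57 log2 CPM), male tg 4 (4.76), female WT 1 (4.45) and female tg 6 (4.39). The mean of the signalling genes was lowest in male WT 6 (4.44 log2 CPM), male tg 7 (4.54), female WT 1 (4.49) and female tg 1 (4.47). How closely each list followed the RP level was not compared.

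Starts of transcripts were read for members found in a RefSeq table of promoters (GRCm38.p6), which held 61 of 83 members with 73 windows. Windows of 30 bases, from 15 before to 15 after the annotated start, are shown for the called gene *Rpl28*, for 5 of the 17 members called in all settings between male and female tg mice, chosen to show windows with and without a run, and for *Rps6*. Capitals mark the longest run of C or T of at least 6 bases.
Rpl28 (chr7:4792950-4792979, plus strand): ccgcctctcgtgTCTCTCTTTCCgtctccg
Rps9 (chr7:3704026-3704055, plus strand): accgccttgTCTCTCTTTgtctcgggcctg
Rps10 (chr17:27635230-27635259, minus strand): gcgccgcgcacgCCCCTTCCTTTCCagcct
Rpl18 (chr7:45718056-45718085, plus strand): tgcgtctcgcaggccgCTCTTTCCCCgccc
Rps7 (chr12:28635939-28635968, minus strand): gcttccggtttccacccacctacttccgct
Rpl11 (chr4:136053379-136053408, minus strand): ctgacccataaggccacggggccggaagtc
Rps6 (chr4:86857353-86857382, minus strand): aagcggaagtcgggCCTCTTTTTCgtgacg

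A run of 6 or more C or T bases was in 53.4% of the 73 member windows and in 29.2% of the 32851 windows of all genes. CTCTTTC, searched on the sense strand from 50 bases before to 50 after the start, was in 19.2% of member windows and 1.37% of all, and CTTTCC, which overlaps it, in 30.1% and 4.69%. CCGGAAG, searched on both strands from 250 bases before to 50 after the start, was in 35.6% of member windows and 8.86% of all. Of the 17 members, 12 had a window here, 6 with a run of 6 and 6 without, the latter *Rps3*, *Rps7*, *Rps16*, *Rpl9*, *Rpl11* and *Rpl27*. *Rpl36a* had no such run either. A match describes letters only, and the files give no measure of binding or translation.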

How the data were processed

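RNA was measured in 28 livers, 7 per sex and genotype. Per the labels and the methods, the authors made NEBNext Ultra libraries, sequenced single-end, aligned with STAR 2.5.0a to mm10 and counted uniquely mapped reads on Gencode vM12 genes with HTSeq. They deposited raw counts without normalization, and tested with DESeq2. The strand setting is not given in the sources used here, so overlapping and antisense genes are uncertain. Symbols came from Gencode vM21 (GRCm38, the same build) and were found for 49326 of 49585 features. Of these features 32072 had counts.

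Genes whose mean normalized count reached 0.5 were kept (21583). After TMM scaling, edgeR 4.0.16 (R 4.3.3) gave quasi-likelihood F-tests from 1 fit of all 28 libraries without covariates, with Benjamini-Hochberg adjustment over all genes and a threshold of 0.05. CPM use TMM-scaled totals, and log2 CPM a prior count of 2. Libraries of a group differed by more than sampling noise (mean chi-square per gene at least 13.3), and each is 1 mouse. Columns not mapped to a sample were 0. Floors and depth cover counting error only. The fit was tested on simulated counts drawn independently for each gene, so that test does not cover counts of members that vary together. Coding windows were compared exactly, on both strands, with all Gencode vM21 transcripts.

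The members and all gene lists were chosen with earlier results of these data known. Named were, per comparison, up to 5 members called in each direction by lowest p (if none, the 2 with the lowest p), the 3 highest and lowest per exon length, the 3 with the largest and smallest SD, paralogs, and up to 4 per other list by p. Other members named, such as *Rps6*, *Rpl5*, *Rpl7a*, *Rpl10a*, *Rpl23a*, *Rps14* and those with printed start windows, were chosen after their values were seen. Alternatives were RLE, upper-quartile or no factors, filterByExpr, no filter beyond 1 count, the replicate number as a block, 2 surrogate variables (sva 3.50.0), removal of a length and GC trend, each pair of groups alone, DESeq2 1.42.0 and each library left out. Leaving out 5 libraries together was added after seeing the data. Values of some single genes are not reported here.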

Additional observations from a re-analysis of the deposited data

Results flagged for a closer look

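Gaps within groups were examined for the RP share of counts and for 17 named members, 72 groups of 7 mice in all, and 9 held a mouse whose gap to the next mouse, divided by the group's range, was above the critical value of 0.568. Chance flags about 5% of groups, but the 9 cannot be read against that rate. These genes share their libraries, and *Rpl37a*, *Rpl13* and *Rps21* were chosen for their large SD within groups. In male WT mice replicate 6 was apart above the others in the RP share of counts (gap 0.719 of the range), in *Rplp1* (0.716), *Rps15* (0.709), *Rps21* (0.747), *Rpl13* (0.745) and *Rpl37a* (0.814). In male tg mice replicate 7 was apart in *Rpl37a* (0.620) and *Rpl11* (0.571), and in female WT mice replicate 1 was apart in *Rps21* (0.587). No mouse was apart below its group.

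The *Sirt6* transcript differed between the sexes in its response to genotype, by 3.29 on the log2 scale (male minus female, SE 0.35, adjusted p = 7e-06), with log2 fold changes of 6.68 in males and 3.39 in females. No RP gene passed the same test of the difference.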

How the results depend on the processing

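No called value and no median changed its sign under the other settings that kept all mice. The count of members called in males (3) was 1 with RLE, upper-quartile factors, each pair of groups alone or DESeq2, 0 with no filter beyond 1 count, 6 with the length and GC trend removed and 43 with 2 surrogate variables. By library size alone it was 2, both lower. The share of all genes called in males under these settings ran from 11.5% with no filter to 34.8% with surrogate variables, and was 24.4% with the trend removed. The interaction (0) gave 1, lower, by library size alone, 3 with the trend removed and 23 with surrogate variables. Of all genes 8.63%, 6.59% and 14.5% were called for the interaction in the same order. Male against female WT (2) gave 14 by library size alone, 1 with filterByExpr, no filter beyond 1 count or the block, 5 with the trend removed, 20 with surrogate variables (10 in each direction) and 0 for the pair alone. Male against female tg (33) gave 23 by library size alone. Without male WT 6, male tg 7, female WT 1 and female tg 1 and 6, which were picked for their high RP values so that the spread fell by construction, the counts were 20 in males, 16 for the interaction, 4 for WT and 65 for tg mice, and 0 in females. Of all genes 22.7% were then called in males and 0.0232% in females. The cause of the other changes was not tested. Single libraries left out gave 0 to 9 in males, 0 to 1 for the interaction, 0 to 3 for WT, 19 to 42 for tg, and 0 in females. Medians then ran from 0.18 to 0.46, 0.31 to 0.62, -0.04 to 0.29, 0.42 to 0.66, and -0.27 to 0.03. Members' median SDs ran from 0.24 to 0.42 in male WT and 0.31 to 0.44 in male tg mice, and 0.39 to 0.52 in female WT and 0.37 to 0.47 in female tg mice. Without the 20 highest genes in the denominator the median RP share was 0.690% in male WT and 0.671% in male tg mice. In female WT and female tg mice it was 0.515% and 0.474%. Library size alone moved the median of all genes to -0.22 in males and 0.19 between WT sexes. With the replicate number as a block the counts were 4 in males, 0 in females, 0 for the interaction, 1 for WT and 38 for tg. Correlations between same-numbered mice ran from -0.35 to 0.33, with medians from -0.06 to 0.07 between pairs of groups. Such values show no pairing by number and cannot exclude a weak one. *Rpl39l*, with at most 10 counts in a library, was limited by depth.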
